A study of Homo sapiens with 12 samples.

Results

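The genes described here encode 10 chemokines, chosen by name: the CC chemokines CCL2, CCL5, CCL7, CCL8, CCL20 and CCL26, the CX3C chemokine CX3CL1, and the CXC chemokines CXCL10, CXCL11 and CXCL12. All 10 were among the 16383 genes of the deposited table. mRNA was measured by sequencing of poly(A) RNA in IMR90 (a human lung fibroblast line, labelled as wild type) in 4 groups of 3 libraries. One group was proliferating and received no treatment. The other groups were exposed to 20 Gy of ionizing radiation over 10 min, a dose used to drive cells into senescence, a lasting arrest of division with an active secretion of signalling proteins. They then received DMSO, the solvent control, 2 µM palbociclib, an inhibitor of the cell cycle kinases CDK4 and CDK6, or 2 µM ruxolitinib, an inhibitor of the Janus kinases JAK1 and JAK2. Treatments fell on days 4, 6, 8 and 10 after irradiation, and the irradiated cells were collected on day 11. Every inhibitor group was thus irradiated, and no proliferating group received an inhibitor. All libraries came from a single cell line.

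Chemokines are small secreted proteins that guide leukocytes along concentration gradients by binding receptors with a serpentine fold on the target cell. They are classed by the spacing of their first cysteines, as CC, CXC or CX3C. CXCL10 and CXCL11, with CXCL9, bind CXCR3 on activated T cells and are known targets of interferon signalling, which runs from the receptors through the Janus kinases to transcription factors such as STAT2 and IRF9. CCL2, CCL7 and CCL8 attract monocytes, mainly through CCR2, and are known targets of NF-kB, the transcription factor of inflammatory signalling. CCL20 binds CCR6, CCL26 binds CCR3, CX3CL1 binds CX3CR1, and CXCL12, a chemokine that stromal cells make without stimulation, binds CXCR4 and ACKR3. Senescent fibroblasts are known to secrete chemokines as part of their inflammatory secretion.

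Recovered reads per library ranged from 14106799 to 21762412 over the listed genes. CDKN1A, a cell cycle inhibitor induced in senescence, had a mean of 3389 normalized counts in proliferating cells and 29150, 14779 and 31744 with DMSO, palbociclib and ruxolitinib. MKI67 and LMNB1, listed with CDKN1A as markers of the state of the cells, were lowest with palbociclib. Their means in the same order of groups were 13062, 1011, 82.5 and 700 for MKI67 and 3911, 153, 31.5 and 129 for LMNB1. All 10 of 10 fibroblast markers had a mean of at least 10 normalized counts in every group. Their sum, mostly COL1A1 and COL1A2, was 822420 to 854897 in proliferating cells and 408919 to 419590, 651681 to 683887 and 515852 to 520021 with DMSO, palbociclib and ruxolitinib. T cell markers summed to at most 2.71 normalized counts in any library. Library A126 among the proliferating cells and libraries A119 and A120 with palbociclib lay apart from their groups on the fourth principal component, which held 3.0% of the variance, and results that change without 1 of them are given both ways. The labels call the libraries of a group replicates without saying that they came from separate cultures, so p-values measure the spread between these libraries, which may be technical. Between replicate libraries, chi-squared per degree of freedom was 2.43 to 2.81 with DMSO and 1.98 to 2.78 with ruxolitinib, beside about 1 from counting noise. It was 6.32 to 24.5 with palbociclib and 2.89 to 16.6 in proliferating cells. The main fit shares the spread of each gene over all 4 groups, so p-values between DMSO and ruxolitinib also carry the spread of the others.

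CXCL10 and CXCL11 were both higher in irradiated cells with DMSO and lower with either inhibitor. They lie close together on chromosome 4, CXCL10 (Entrez gene 3627) at chr4:76021118-76023497 and CXCL11 (6373) at chr4:76033682-76036070, both on the minus strand (RefSeq, GRCh38.p14). These neighbours moved together, and CCL20 was also higher with DMSO than in proliferating cells and lower with palbociclib. The bases from 250 before to 50 after the start of the 3 genes are therefore shown, from the RefSeq annotation of GRCh38.p14. Capitals mark matches to an interferon-stimulated response element (TTTC, any 2 bases, then TTTC), a STAT site (TTCNNNGAA), a STAT6 site (TTC and GAA with 4 bases between them) or the kappa B consensus of NF-kB, searched on both strands.
CXCL10 (chr4:76023448-76023747, minus strand): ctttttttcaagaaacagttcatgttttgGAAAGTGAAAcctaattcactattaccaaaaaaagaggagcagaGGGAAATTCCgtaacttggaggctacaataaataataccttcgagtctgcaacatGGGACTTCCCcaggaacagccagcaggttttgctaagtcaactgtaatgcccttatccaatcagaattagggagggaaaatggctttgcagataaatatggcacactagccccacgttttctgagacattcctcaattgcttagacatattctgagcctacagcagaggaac
CXCL11 (chr4:76036021-76036320, minus strand): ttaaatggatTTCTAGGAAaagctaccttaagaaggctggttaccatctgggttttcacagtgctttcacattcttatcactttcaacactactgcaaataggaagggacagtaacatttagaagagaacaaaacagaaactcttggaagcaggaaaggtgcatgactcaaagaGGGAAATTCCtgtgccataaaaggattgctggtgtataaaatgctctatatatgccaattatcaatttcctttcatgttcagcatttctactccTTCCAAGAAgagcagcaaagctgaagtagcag
CCL20 (chr2:227813592-227813891, plus strand): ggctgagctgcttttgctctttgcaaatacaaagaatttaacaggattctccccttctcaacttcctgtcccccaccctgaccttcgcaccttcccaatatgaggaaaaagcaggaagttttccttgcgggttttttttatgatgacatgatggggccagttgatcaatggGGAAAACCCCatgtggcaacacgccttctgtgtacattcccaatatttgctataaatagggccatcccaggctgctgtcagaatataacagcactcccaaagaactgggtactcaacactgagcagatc

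The CXCL10 window held an interferon-stimulated response element at -221 to -212, read on the strand opposite to the gene, and kappa B matches at -177 to -168 and at -122 to -113, counted from the gene's start. CXCL11 held STAT matches at -240 to -232 and at 19 to 27 and a kappa B match at -76 to -67. CCL20 held a kappa B match at -79 to -70, also read on the opposite strand. Of all 35116 promoter windows of this length, 3.57% held the response element, 7.66% the STAT site, 6.44% the STAT6 site and 5.91% the kappa B consensus. The windows of 7 members were in the table. Those of CCL7 and CCL8 each held 1 STAT match, and those of CCL26 and CXCL12 held none of these letters. The CCL26 window (chr7:75789697-75789996, minus strand) lies inside the span of the gene given below and not at its outer end. The bases around that outer end were not searched. None of the 4 motifs overlapped another in the windows shown. A match is a description of the letters and not a measured binding site.

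The comparison of irradiated cells given DMSO with proliferating cells asked which chemokine genes differ after irradiation. The proliferating cells received no treatment, and no collection day is given for them. In comparisons with these cells, irradiation, the solvent or inhibitor and time in culture can therefore not be told apart. CXCL10 had 8.30, 7.76 and 4.76 normalized counts in the proliferating libraries and 399, 491 and 488 in the DMSO libraries. In proliferating cells it was near zero, defined as a group mean under 10 normalized counts, and every DMSO library lay far above. The log2 fold change was 5.88 (SE 0.18, limma adjusted p 2.34e-13). CXCL11 had 0, 2.22 and 0 normalized counts in proliferating cells, which were 2 reads in 1 library, and 166, 148 and 162 with DMSO. The ratio of reads was 232 with a 95% counting interval of 63.9 to 1923, an interval that covers counting error only. The limma log2 fold change was 6.76 (SE 0.46, adjusted p 2.82e-09), on the scale of log2(value + 1), which understates changes of low genes.

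**Figure D1:**
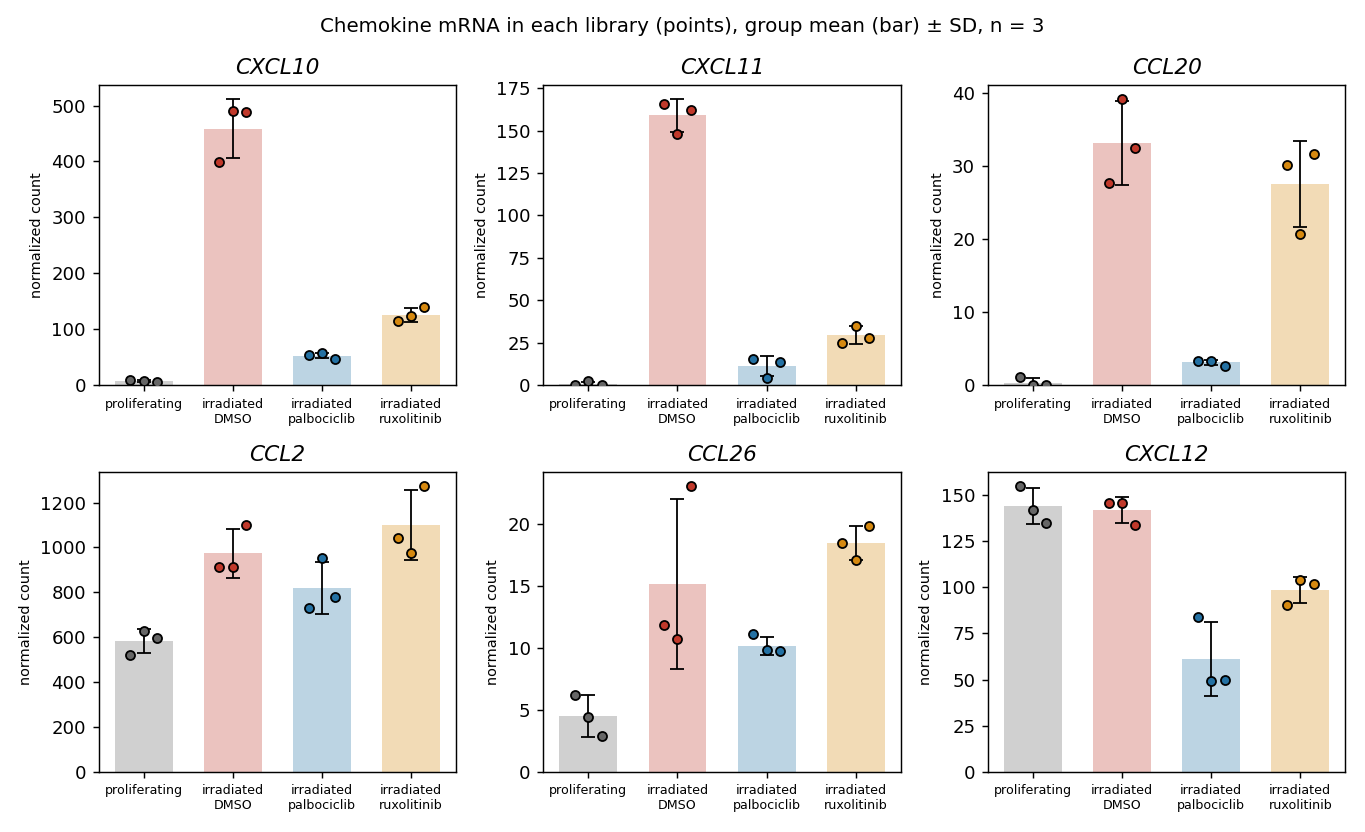
Normalized counts (y axis, linear, from 0) of the 6 tested chemokine genes in the 4 groups (x axis). Points are libraries, bars are means and error bars are SD (n = 3). The DMSO libraries of CXCL10 sit between 399 and 491, above all libraries of the other groups, and those of CXCL12 sit between 134 and 146 and overlap those of proliferating cells, between 135 and 155.

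CCL20 (6364, chr2:227813842-227817556), which attracts cells that carry CCR6, had 1 read in a single proliferating library and 27.7, 39.1 and 32.4 normalized counts with DMSO. All DMSO libraries were above all proliferating ones (ratio of reads 95.4, 95% counting interval 16.7 to 3810; log2 fold change 4.73, SE 0.41, limma adjusted p 3.84e-08). CCL26 (10344, chr7:75769524-75791597), known for attracting eosinophils, was near zero in proliferating cells, at 6.23, 4.44 and 2.86. It had 11.9, 10.7 and 23.1 with DMSO, where library A118 was well above the others (log2 fold change 1.53, SE 0.36, limma adjusted p 0.00142). CCL26 was the one call of this comparison that depended on the scaling: under quantile normalization its log2 fold change was 0.08 and the adjusted p 0.852, at the end of a range of 0.000476 to 0.852 over the alternatives.

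CCL2 (6347, chr17:34255285-34257203), the main monocyte attractant of the group, was already abundant in proliferating cells, at 522, 627 and 597 normalized counts. With DMSO it had 911, 912 and 1101, so that the groups did not overlap and the change was small beside that of CXCL10 (log2 fold change 0.74, SE 0.12, limma adjusted p 2.98e-05). CXCL12 (6387, chr10:44370165-44385097) had 155, 142 and 135 in proliferating cells and 146, 146 and 134 with DMSO. These ranges overlapped, and the difference did not pass the test (log2 fold change -0.02, SE 0.17, limma adjusted p 0.931).

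In all, 5 of the 10 members were higher with DMSO than in proliferating cells and none was lower. CXCL12 was not called and 4 were too low to test. Over all 11242 tested genes 33.0% were called higher and 39.3% lower. The groups did not overlap for 5 members, and for 75.1% of all tested genes. The median log2 fold change was 3.13 over the 6 tested members and -0.05 over all tested genes. CXCL10, CXCL11, CCL20 and CCL26 passed the filter of a mean of 10 normalized counts through the irradiated groups, where they are high, so neither this count nor this median supports a general direction. Monocyte and macrophage markers moved the same way: their 7 genes summed to 555 to 578 in proliferating cells and 1254 to 1338, 703 to 823 and 1117 to 1179 with DMSO, palbociclib and ruxolitinib, of which CD68, a lysosomal protein that fibroblasts also express, made up a mean of 549, 1232, 741 and 1093. CD163 had no reads in proliferating cells, PTPRC, the pan-leukocyte marker, had at most 9.90 in any library, and 3 of 7 markers reached a mean of 10 with DMSO, against 1 in proliferating cells, 2 with palbociclib and 4 with ruxolitinib. In proliferating, DMSO, palbociclib and ruxolitinib cells, CD14 had means of 4.03, 28.2, 13.0 and 16.0. Those of CSF1R were 9.16, 20.2, 7.51 and 26.1, and those of ITGAM 0.370, 8.78, 3.02 and 11.5. LYZ and CD163 were instead higher with palbociclib (2.78 and 0.592) than with DMSO (0.789 and 0.330). Sums of the 5 endothelial markers (1681 to 1949, 2389 to 2554, 3501 to 4380 and 2247 to 2254 in the order above) and the 4 epithelial markers (99 to 143, 266 to 309, 376 to 501 and 296 to 348) were also above proliferating cells with DMSO and were highest with palbociclib. TEK made up most of the endothelial sum (means of 1832, 2422, 3957 and 2205) and KRT19 most of the epithelial sum (97.2, 256, 402 and 296). The means of PECAM1 (10.7 and 5.45), KDR (9.20 and 2.14) and EPCAM (32.3 and 20.6) were lower with palbociclib than with DMSO. The endothelial gene CDH5 had no reads with palbociclib, the epithelial gene KRT5 had none in the other 3 groups, and CDH1 had none in proliferating cells. The part of such cells in the chemokine values was not tested. Where a transcript falls in these bulk libraries, fewer cells that make it and less RNA per cell cannot be told apart.

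**Figure D2:**
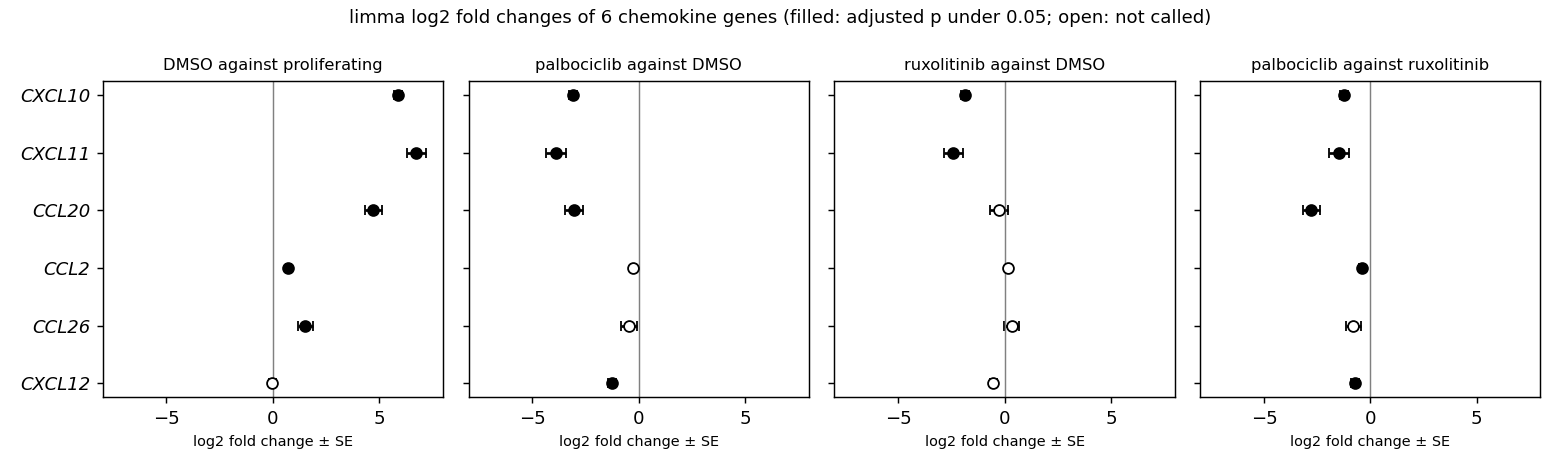
Log2 fold changes (x axis, limma, ± SE) of the 6 tested chemokine genes (y axis) in 4 comparisons. Filled points had an adjusted p under 0.05. Ruxolitinib against DMSO has filled points for CXCL10 (-1.86) and CXCL11 (-2.41), and palbociclib against DMSO also for CCL20 (-3.05) and CXCL12 (-1.25).

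Palbociclib was next set against DMSO, both after irradiation, to see which of the chemokine genes differ under CDK4/6 inhibition. CXCL10 had 54.2, 56.9 and 47.1 normalized counts with palbociclib, or 11.5% ± 1.11 (SD, n = 3) of the DMSO mean. All 3 libraries lay below every DMSO library and above every proliferating one (log2 fold change against DMSO -3.10, SE 0.18, limma adjusted p 2.87e-09). CXCL11 had 15.5, 4.38 and 13.3, or 6.97% ± 3.71 of the DMSO mean, with library A120 lowest (-3.88, SE 0.46, limma adjusted p 7.38e-06). CCL20 was left with 3 reads in each palbociclib library, 9.35% ± 1.11 of the DMSO mean, a ratio of reads of 0.0935 (95% counting interval 0.0414 to 0.186; log2 fold change -3.05, SE 0.41, limma adjusted p 2.11e-05).

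CXCL12 departed from the other genes, since it was not called between DMSO and proliferating cells but fell with palbociclib. Its libraries had 84.1, 49.3 and 49.7 normalized counts, all below the lowest DMSO and proliferating libraries, with library A119 highest (log2 fold change against DMSO -1.25, SE 0.17, limma adjusted p 2.62e-05; against proliferating cells -1.27, adjusted p 5.88e-06). When 1 library at a time was left out, the log2 fold change against DMSO ranged from -1.50 to -1.12. CCL2, at 728, 951 and 777, overlapped the DMSO libraries and was not called (-0.25, SE 0.12, limma adjusted p 0.0818). Its call rested on the scaling and on library A120: the adjusted p was 0.00265 with library totals made equal, 0.0406 with upper quartiles made equal and 0.0120 without A120, over a range of 0.00265 to 0.311. CCL26, at 11.1, 9.85 and 9.77, overlapped the DMSO libraries as well (-0.45, SE 0.36, limma adjusted p 0.319).

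Of the 6 tested members 4 fell with palbociclib and none rose, where 22.3% of all tested genes were called lower and 26.0% higher. The groups did not overlap for 4 members, and for 54.8% of all tested genes. The median log2 fold change was -2.15 over the tested members and 0.02 over all tested genes. CCL20 was near zero with palbociclib (mean 3.09) and passed the filter through the DMSO and ruxolitinib groups. Neither the count of 4 lower members nor this median therefore supports a general direction. Against proliferating cells, palbociclib libraries were higher for CXCL10 (2.79, limma adjusted p 1.22e-09), CXCL11 (2.88, adjusted p 4.09e-05), CCL2 (0.49, adjusted p 0.00132), CCL26 (1.07, adjusted p 0.0148) and CCL20 (1.69, adjusted p 0.00150), so that 5 members were called higher and CXCL12 lower, beside 35.2% and 38.6% of all tested genes. The groups did not overlap for all 6, and for 70.9% of all tested genes. CXCL10, CXCL11, CCL20 and CCL26 were near zero in proliferating cells and passed the filter through irradiated groups, so these counts support no general direction. The CCL20 call compares 9 reads with 1, and was lost when only these groups were fitted (adjusted p 0.0613) and under quantile normalization (0.330), over a range of 0.000199 to 0.330. That of CCL26 was lost without the proliferating library A127 (adjusted p 0.0600) and under quantile normalization (0.324), over a range of 0.00451 to 0.324.

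For JAK inhibition, ruxolitinib libraries were set against the same DMSO libraries. CXCL10 had 114, 123 and 139 normalized counts with ruxolitinib, 27.3% ± 2.73 (SD, n = 3) of the DMSO mean. No library overlapped those of DMSO or of proliferating cells (log2 fold change against DMSO -1.86, SE 0.18, limma adjusted p 5.50e-06; against proliferating cells 4.02, adjusted p 1.73e-11). CXCL11 had 24.7, 35.1 and 28.0, 18.4% ± 3.36 of the DMSO mean (-2.41, SE 0.46, limma adjusted p 0.00589). That call was lost at a pseudocount of 0.1 (adjusted p 0.173), the highest of its alternatives, whose lowest was 1.97e-22.

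The tested CC chemokines, CCL2, CCL20 and CCL26, did not pass this test. CCL20 had 30.1, 20.7 and 31.6 normalized counts, CCL2 1043, 977 and 1274, and CCL26 18.5, 17.1 and 19.9. Each of these ranges overlapped that of DMSO. The log2 fold changes were -0.27 (SE 0.41, limma adjusted p 0.821), 0.17 (SE 0.12, 0.539) and 0.34 (SE 0.36, 0.726). CXCL12 had 90.3, 104 and 102, 69.4% ± 5.10 of the DMSO mean. No ruxolitinib library reached the lowest DMSO library, yet the difference was not called (-0.52, SE 0.17, limma adjusted p 0.109). The call depended on the fit: the adjusted p was 0.0129 without the palbociclib library A119, 0.00273 when ruxolitinib and DMSO alone were fitted and 0.0346 in DESeq2, over a range of 0.00273 to 0.336. Ruxolitinib libraries were lower than proliferating ones in CXCL12 (-0.54, limma adjusted p 0.00969), a call that was lost with library totals made equal (0.0863) or upper quartiles made equal (0.0594), over a range of 0.000536 to 0.0863.

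In all 2 of the 6 tested members fell with ruxolitinib and none rose, where 3.42% of all tested genes were called lower and 1.10% higher. The groups did not overlap for 3 members, CXCL12 being the third, and for 31.9% of all tested genes. The median log2 fold change was -0.40 over the tested members and -0.00 over all tested genes. Against proliferating cells, 5 members were higher with ruxolitinib and CXCL12 lower, beside 32.6% and 39.5% of all tested genes, and the groups did not overlap for all 6 and for 76.2% of all tested genes. These counts support no general direction either, since CXCL10, CXCL11, CCL20 and CCL26 passed the filter through irradiated groups. The other values in this comparison were 4.34 for CXCL11, 4.47 for CCL20, 0.91 for CCL2 and 1.87 for CCL26 (limma adjusted p 4.93e-07, 7.45e-08, 3.34e-06 and 2.57e-04). The CCL26 call was lost under quantile normalization (0.60, adjusted p 0.128), over a range of 0.000105 to 0.128. The palbociclib and ruxolitinib effects share their DMSO libraries.

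The inhibitors were also compared directly. CCL20 showed the largest difference, at 2.66 to 3.32 normalized counts with palbociclib and 20.7 to 31.6 with ruxolitinib (log2 fold change -2.78, SE 0.41, limma adjusted p 6.59e-05). CXCL10 was lower with palbociclib than with ruxolitinib in all libraries (-1.23, SE 0.18, adjusted p 7.00e-05), as was CXCL12 (-0.73, SE 0.17, adjusted p 0.00320). CCL2 was called lower too (-0.42, SE 0.12, limma adjusted p 0.00871), although without the ruxolitinib library A124 the adjusted p was 0.0566, the highest of a range that began at 0.000470. The difference in CXCL11 (-1.47, SE 0.46, limma adjusted p 0.0200) lost its call without A120 (-0.96, adjusted p 0.0910), without the ruxolitinib library A123 (-1.33, 0.0742) and at a pseudocount of 0.1 (0.183), over a range of 0.000200 to 0.183. CCL26 was not called (-0.80, SE 0.36, limma adjusted p 0.0941) although its groups did not overlap. It was called in edgeR (adjusted p 0.0444), at the same total (0.0356), without a variance trend (0.0407) and with these groups alone (0.0442), over a range of 0.0356 to 0.661.

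Thus 5 of the 6 tested members were lower with palbociclib than with ruxolitinib and none was higher, where 17.6% of all tested genes were called lower and 22.8% higher. A decrease of at least 2-fold was called for 3 members, CXCL10, CXCL11 and CCL20, and for 3.99% of all tested genes. The groups did not overlap for all 6, and for 51.8% of all tested genes. The median log2 fold change was -1.01 over the tested members and 0.02 over all tested genes. CCL20, near zero with palbociclib, passed the filter through the DMSO and ruxolitinib groups, so these counts and this median support no general direction.

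The remaining 4 members were near zero in every group and were not tested. CX3CL1 (6376, chr16:57372490-57385044), a membrane-anchored chemokine that proteases such as ADAM10 and ADAM17 can shed, had 29 reads over the 12 libraries. None fell in proliferating cells, where 0 reads in 3 libraries allow a mean of up to 1.03 normalized counts. It had 4.95, 1.18 and 2.31 normalized counts with DMSO, 0, 1.09 and 1.78 with palbociclib, and 6.17, 5.40 and 3.61 with ruxolitinib. Set against this limit of 3 reads over the group, the mean was at least 2.74-fold higher with DMSO and at least 4.92-fold higher with ruxolitinib than in proliferating cells, without the counting error of the 8 and 18 reads themselves. Reads were fewer with palbociclib than with ruxolitinib (3 against 18, ratio 0.199, 95% counting interval 0.0376 to 0.682).

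CCL7 (6354, chr17:34270221-34272242), a monocyte attractant and direct neighbour of CCL2, had 18 reads in all. By group these were 3 reads in proliferating cells and 4, 1 and 10 with DMSO, palbociclib and ruxolitinib. The ratio of palbociclib to ruxolitinib was 0.119 with a 95% counting interval of 0.00275 to 0.840, and the intervals of the other comparisons held 1. CCL5 (6352, chr17:35871491-35880360), a T cell and monocyte attractant, and CCL8 (6355, chr17:34319435-34321402), a relative of CCL2, had 2 reads each over the 12 libraries, 1 in a DMSO and 1 in a ruxolitinib library. No read of either was found in proliferating or palbociclib libraries, so no difference was detectable at this depth. Of the transcript words of 50 bases in CCL5, 15.6% also occur in transcripts of other genes, which makes its count uncertain. For CX3CL1 that share was 0.416%, and it was 0 for the other members.

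**Figure D3:**
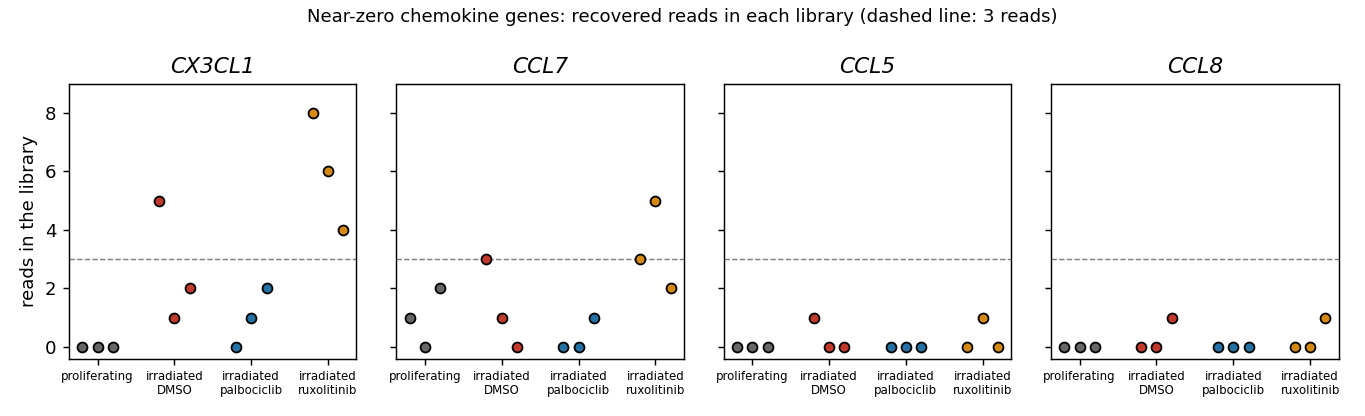
Recovered reads per library (y axis) of the 4 near-zero chemokine genes in the 4 groups (x axis), 1 point per library. CX3CL1 holds 4 to 8 reads in each ruxolitinib library and 0 in each proliferating library, and CCL5 and CCL8 hold at most 1 read in any library.

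Levels of different genes were set side by side as normalized counts per kb of merged exons. Merged exons pool all annotated transcripts of a gene, for example 703 bases for CCL26 and 6143 for CXCL12. Which transcripts these cells make was not determined, so the order of genes also depends on these lengths, an uncertainty that the SDs leave out. In proliferating cells CCL2 led at 301 ± 27.9 per kb (SD, n = 3), followed by CXCL12 at 23.4 ± 1.60. CCL26 (6.41 ± 2.40) and CXCL10 (5.91 ± 1.62) came next and did not differ beyond their spread. With DMSO the order was CCL2 (504 ± 56.6 per kb), CXCL10 (391 ± 44.6) and CXCL11 (89.1 ± 5.37), whose libraries did not overlap, and then CXCL12 (23.1 ± 1.12), CCL26 (21.6 ± 9.78) and CCL20 (20.7 ± 3.58), which did.

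CCL2 and CXCL10 stayed first and second with both inhibitors. With palbociclib the levels per kb were 423 ± 60.6 for CCL2, 44.9 ± 4.33 for CXCL10 and 14.6 ± 1.03 for CCL26, with no overlap between them. CXCL12 (9.94 ± 3.25) and CXCL11 (6.21 ± 3.31) followed and overlapped, above CCL20 (1.94 ± 0.231). With ruxolitinib they were 567 ± 80.6 for CCL2, 107 ± 10.7 for CXCL10 and 26.3 ± 1.95 for CCL26. CCL20 (17.2 ± 3.70), CXCL11 (16.4 ± 2.99) and CXCL12 (16.0 ± 1.18) overlapped. In normalized counts, CCL26 was instead below CXCL12, at means of 10.2 and 61 with palbociclib and 18.5 and 98.6 with ruxolitinib. The 4 near-zero members lay at or under 3.33 per kb in every group.

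**Figure D4:**
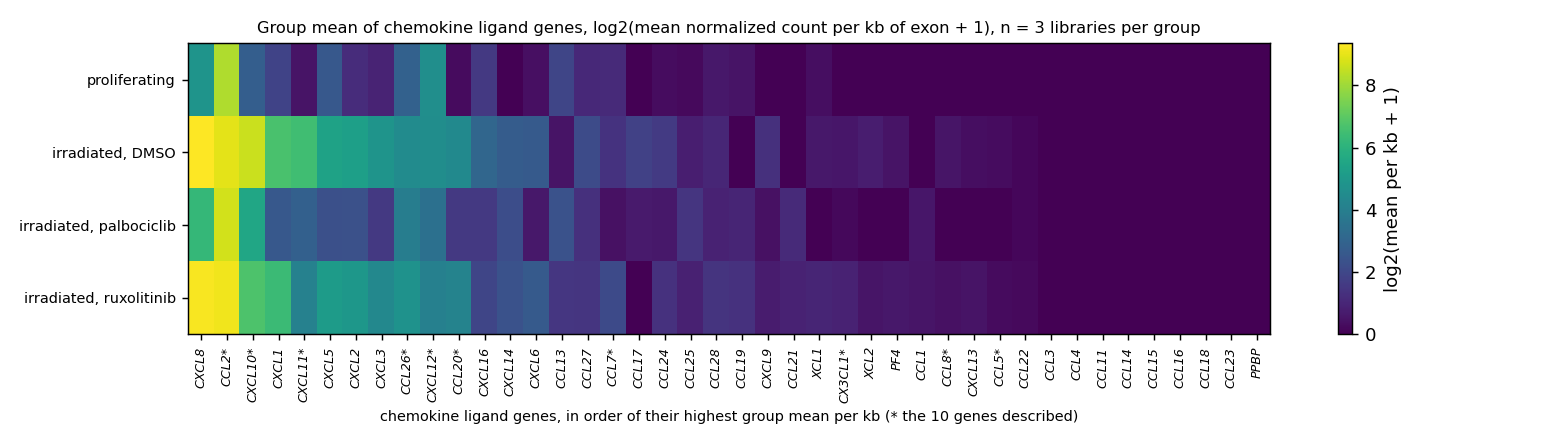
Group means of 42 chemokine ligand genes as log2(mean normalized count per kb of merged exons + 1) (colour), with the groups as rows and the genes as columns in order of their highest group mean. Asterisks mark the 10 genes described. CCL2 is bright in all 4 rows, CXCL10 and CXCL11 are brightest with DMSO, and the columns at the right hold genes without reads.

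Genes next to the members on their chromosomes did not all share their level. CXCL9, the third CXCR3 ligand, had 20 reads in the 12 libraries and was not tested, at a mean of 0 in proliferating cells and 4.00 ± 1.46, 0.961 ± 0.897 and 1.76 ± 0.968 with DMSO, palbociclib and ruxolitinib. CXCL10 and CXCL11 lie within ART3, a gene on the plus strand, and the strand setting of the authors' counting is not given in the sources used here, so reads of the strands cannot be told apart. ART3 itself had a mean of 0.370 in proliferating cells and 13.4, 7.07 and 9.87 with DMSO, palbociclib and ruxolitinib. On chromosome 17, CCL2 was abundant in all groups while its relatives CCL7 and CCL8 were near zero in all.

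Of the other 32 chemokine ligand genes listed, 5 were tested, 18 had reads but were too low to test and 9 had no reads. The 5 were the CXCR2 ligands CXCL1, CXCL2, CXCL3, CXCL5 and CXCL8, which attract neutrophils. All 5 were called higher with DMSO than in proliferating cells and lower with palbociclib than with DMSO, beside 33.0% and 22.3% of all tested genes, and none was called between ruxolitinib and DMSO. CXCL1, CXCL2 and CXCL3 had means under 10 in proliferating and palbociclib cells and passed the filter through the other groups. CXCL5 was also near zero with palbociclib, at a mean of 9.41 beside 98.7 with DMSO. These counts therefore support no general direction. CXCL1, for example, had a mean of 3.66 in proliferating cells and 136, 6.77 and 113 with DMSO, palbociclib and ruxolitinib (log2 fold change of ruxolitinib against DMSO -0.28, limma adjusted p 0.860). CCL20 had the same calls as these 5 in those 3 comparisons.

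Of 22 chemokine receptor genes, 5 were tested and 3 had no reads. CCR7, CCR10, ACKR3, ACKR4 and CCRL2 were each called higher with DMSO than in proliferating cells, beside 33.0% of all tested genes. All had a mean under 10 in proliferating cells and passed the filter through the irradiated groups, so this count supports no general direction. ACKR3, which binds CXCL11 and CXCL12 and removes them, went from 8.86 ± 3.46 to 39.9 ± 3.83 normalized counts (log2 fold change 2.11, limma adjusted p 7.58e-05), and ACKR4, another scavenging receptor, from 5.11 ± 0.642 to 17.2 ± 2.77 (1.57, 6.77e-04). CCRL2 was called lower with palbociclib (-1.35, limma adjusted p 0.0374), at means of 15.6 with DMSO and 6.46 with palbociclib. It was thus near zero with palbociclib and passed the filter through the DMSO and ruxolitinib groups, so this call supports no general direction. No receptor was called between ruxolitinib and DMSO. CXCR3, the receptor of CXCL10 and CXCL11, had no reads, CCR6 had 24 reads, CX3CR1 had 23 and CXCR4 had 63 over the 12 libraries, and CCR2 was not analysed here.

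Of 9 proteases that act on chemokines, 8 were tested, of which 5 were higher and 1 lower with DMSO than in proliferating cells, beside 33.0% and 39.3% of all tested genes. DPP4, which trims the amino terminus of CXCL10, CXCL11 and CXCL12, had a mean of 371, 1329, 768 and 1256 in proliferating, DMSO, palbociclib and ruxolitinib cells. It was higher with DMSO than in proliferating cells (log2 fold change 1.84, limma adjusted p 1.51e-11) and fell with palbociclib (-0.80, 1.33e-06). With palbociclib MMP1 (-2.37), MMP3 (-1.48) and CTSS (-2.89) fell too and 1 protease, MMP14, rose (4 lower and 1 higher in all, beside 22.3% and 26.0% of all tested genes), whereas 0 of 8 were called with ruxolitinib (limma; at an adjusted p of 0.0529 for MMP1, the lowest).

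Genes of interferon and NF-kB signalling were read from lists. These lists also hold feedback genes of the pathways, and whether their changes came before those of the chemokines was not tested. Of 19 interferon pathway genes 16 were tested. With DMSO 8 were higher and 3 lower than in proliferating cells, with palbociclib 1 was higher and 5 lower than with DMSO, and with ruxolitinib 1 was higher and 7 lower. Over all tested genes 33.0% were higher and 39.3% lower in the first of these comparisons, 26.0% and 22.3% in the second, and 1.10% and 3.42% in the third. IRF9, a transcription factor of the interferon response, had a mean of 355 ± 33.4 normalized counts in proliferating cells and 1549 ± 28.1, 515 ± 71.5 and 302 ± 0.605 with DMSO, palbociclib and ruxolitinib. It was thus higher with palbociclib than with ruxolitinib (log2 fold change 0.76, limma adjusted p 1.12e-05). STAT2 fell with palbociclib (-0.50, adjusted p 8.81e-05) and with ruxolitinib (-0.66, adjusted p 5.27e-05). SOCS1, a feedback inhibitor of Janus kinases, was lower with DMSO than in proliferating cells (-2.06, adjusted p 3.62e-08). IFNB1 was not tested, with a mean of 3.33 with DMSO and 0 in proliferating cells, and JAK1 and JAK2 were not called between either inhibitor and DMSO.

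Of 18 NF-kB pathway genes 15 were tested, and 11 were higher and 1 lower with DMSO than in proliferating cells, beside 33.0% and 39.3% of all tested genes. With palbociclib 12 fell and 1 rose, beside 22.3% and 26.0% of all tested genes, and with ruxolitinib 3 fell and none rose, beside 3.42% and 1.10%. IL1B, an inflammatory cytokine that activates NF-kB, had a mean of 16.8 ± 9.25 in proliferating cells and 86.8 ± 11.7, 6.86 ± 3.69 and 116 ± 10.3 with DMSO, palbociclib and ruxolitinib. IL1A, its relative, fell with palbociclib (-3.85, limma adjusted p 4.43e-06), as did IL6 (-1.42, 3.30e-07) and the NF-kB feedback genes NFKBIA (-1.06, 5.60e-07) and TNFAIP3 (-2.34, 1.72e-10). TNFAIP3 fell with ruxolitinib as well (-0.68, adjusted p 0.00103). IL1A was near zero in proliferating cells (mean 5.10) and with palbociclib (3.45) and passed the filter through the other groups. IL1B was also near zero with palbociclib (6.86) and high with DMSO and ruxolitinib. The counts of this list that include IL1A or IL1B therefore support no general direction. TNF had no reads.

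The genes most like each tested member were sought by Pearson correlation of log2 values over the 12 libraries, among tested genes whose mean was 50 normalized counts or more. The libraries fall into 4 groups, so r mainly reflects 4 group means and is given as a description. CXCL10 was most like RND3 (r = 0.987), the interferon-induced IFIT2 (0.985) and SNAPC1 (0.981), and CXCL11 most like ZNF75A (0.974), CXCL10 (0.973) and KIAA1755 (0.972). CCL20 was most like CXCL8 (0.990), FBXO32 and WLS (0.985 each). CCL2 was most like FTH1 (0.960), SRSF8 and PHLDA3 (0.959 each), CCL26 like DPH1 (0.963), SUGCT (0.943) and MAP3K12 (0.941), and CXCL12 like PAPOLG (0.956), C21orf91 (0.954) and KMT5B (0.946). Among the members, r was 0.940 between CCL20 and CXCL10, 0.861 between CCL2 and CCL20 and 0.004 between CXCL10 and CXCL12.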

How the data were processed

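The authors deposited gene counts that they had normalized, on a linear signal scale, by Entrez gene. The submitters' processing notes name Trimmomatic 0.38.1, HISAT2 2.2.1, featureCounts 2.0.3, FastQC 0.74, MultiQC and DESeq2 2.11.40.8 and the builds hg38 and GRCh38, without their order. All 160380 values above 0 were whole multiples of 1 read in their column (tolerance 0.01), so whole reads were recovered, although in library A116 a read is worth nearly 1, which makes this weaker there. Columns carry a group and a library number.

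limma 3.58.1 (R 4.3.3) was fitted to log2(normalized count + 1) over all 12 libraries with a variance trend, for genes with a mean of at least 10 (11242 genes), with Benjamini-Hochberg adjustment over all of them and a threshold of 0.05. All adjusted p-values are from this fit unless another tool is named. Count models (edgeR 4.0.16, DESeq2 1.42.0) used the recovered reads. The fits were also run on simulated counts that had a single dispersion for all genes and groups. That setting lacks the unequal spread between these groups, so it does not show how the fits behave under it. Exon lengths and words come from GENCODE annotation of GRCh38, and counting intervals are exact binomial. Members and lists were chosen with earlier results of these data known. All members are named. Of the lists, genes called with at least a 2-fold change are named, except results that are not reported here. Outside this rule, CXCL9, ART3, MMP14, IFNB1, JAK1, JAK2, TNF, CXCL6, CXCL14, CXCL16 and the receptors without a test were named after their values were seen.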

Additional observations from a re-analysis of the deposited data

How the results depend on the processing

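Over 25 alternatives, 19 of the 36 log2 fold changes of tested members had the same direction and side of the threshold throughout, among them all 6 of CXCL10. Requiring a mean of at least 50 leaves fewer members to test, and the number called fell to 2 for DMSO against proliferating cells, 2 for palbociclib against DMSO, 1 for ruxolitinib against DMSO and 3 for each of the other comparisons. With at least a 2-fold change required, 3 members differed between the inhibitors, and at a pseudocount of 0.1, 1 member was called with ruxolitinib. When 1 library at a time was left out, members called ranged from 5 to 6 for palbociclib against proliferating cells, 4 to 5 for palbociclib against DMSO and against ruxolitinib, and 2 to 3 for ruxolitinib against DMSO. Directions reversed for 2 differences that were not called. CCL26 with palbociclib against DMSO was 0.31 under quantile normalization. CXCL12 with DMSO against proliferating cells was positive with count models (0.0448 in DESeq2, 0.0446 in edgeR), 0.21 with equal totals, 0.13 with equal upper quartiles and -0.061 to 0.0349 with 1 library left out. The causes were not tested. Equal totals moved the median log2 fold change of all genes from -0.05 to 0.18 for DMSO against proliferating cells and from 0.02 to -0.21 for palbociclib against DMSO, and the share of higher genes among calls from 45.7% to 64.0% and from 53.9% to 15.4%. That share went from 56.4% to 15.7% between the inhibitors and from 45.2% to 61.6% for ruxolitinib against proliferating cells, and equal upper quartiles gave 58.1%, 41.7%, 38.7% and 58.8% for these 4 comparisons. Beside 508 genes called over all for ruxolitinib against DMSO, 1841 were called with these groups alone, 246 at an adjusted p under 0.01, 75 with a 2-fold change and 261 to 727 with 1 library left out. For palbociclib against ruxolitinib, 4544 became 3022 at 0.01. A 2-fold change left 2254 of 8134 calls for DMSO, 2465 of 8298 for palbociclib and 2306 of 8113 for ruxolitinib, each against proliferating cells, 674 of 5432 for palbociclib against DMSO and 530 of 4544 between the inhibitors. No paired analysis was possible because the columns carry no replicate number. With no filter, 10 members were tested. CX3CL1 was then called with DMSO (limma adjusted p 0.00252) and with ruxolitinib (1.34e-04) against proliferating cells and between the inhibitors (0.00841), and CCL7 between the inhibitors (0.0356), on the few reads given above.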

Other observations

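CXCL16, a transmembrane chemokine that binds CXCR6, had a mean just under the filter. It had 5.43 ± 1.98 normalized counts (SD, n = 3) in proliferating cells and 20.9 ± 6.30, 5.37 ± 3.54 and 7.98 ± 4.80 with DMSO, palbociclib and ruxolitinib. CXCL6, a CXCR2 ligand, had 0.635 ± 1.10, 10.6 ± 0.241, 1.03 ± 1.10 and 10.6 ± 4.23 in the same order of groups. CXCL14, a chemokine with no settled receptor, had no reads in proliferating cells and 11.0 ± 5.67 with DMSO, 7.14 ± 4.78 with palbociclib and 8.02 ± 1.65 with ruxolitinib. These 3 genes were not tested and were picked after their values were seen.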
